A study of Mus musculus with 12 samples.

Results

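Macrophages change the set of genes they transcribe with their surroundings, and 10 genes that are widely used to read those states are described here in cells cultured from the mouse gut muscle wall. The genes are Arg1, Nos2, Mrc1, Cd163, Folr2, Trem2, Gpnmb, Spp1, Apoe and Cd14. They were chosen by symbol, as arginase, mannose receptor, lipid-associated and inflammatory state genes, and make up 10 of the 52550 genes in the count table. Because they were picked with earlier results of these data known, their differences between groups are given as a description, with no test of their own. All 12 libraries came from wild-type mice (genotype WT), with 3 biologically independent libraries in each of 4 groups, per the series text. The group called P plate was grown on a well plate in P medium, a DMEM-based medium with 10% FBS. In the group called M plate the cells grew on a well plate in M medium, an Advanced DMEM/Ham's F-12 medium without FBS that held N2, B27 without vitamin A, N-acetylcysteine, HEPES and GlutaMAX. M medium also contained 100 ng/mL of murine Noggin, 1 µg/mL of human R-spondin1 and 10 µM of the compound Y27632. Noggin blocks bone morphogenetic proteins and R-spondin1 strengthens Wnt signalling. For M scaffold, M medium was used with cells on a scaffold of electrospun gelatin, a three-dimensional support. The 3 cultures lasted 28 days, and both media held the antibiotic mix ABAM. Strips are pieces of native intestinal muscle that served as positive control, although their labels carry the same time point and source name as the cultures. The labels give no age, no number of animals per library and no sort for macrophages, so each value is that of a mixed population.

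Macrophages of the gut muscle layer lie beside enteric neurons and smooth muscle, take up debris, and depend on signalling through the receptor Csf1r. Arg1 encodes arginase 1, which splits arginine into ornithine and urea, and Nos2 encodes inducible nitric oxide synthase, which makes nitric oxide from the same amino acid. Arg1 is classically induced by interleukin 4 and also by hypoxia, and Nos2 by lipopolysaccharide with interferon gamma. Mrc1, Cd163 and Folr2 encode surface receptors of resident macrophages, for mannosylated ligands, haptoglobin-bound haemoglobin and folate. Trem2, Gpnmb, Spp1 and Apoe form part of the programme of macrophages that handle lipid and debris, and Cd14 is the co-receptor that passes lipopolysaccharide to Tlr4.

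The cultures held macrophage transcripts in every library. All 16 of 16 macrophage identity genes, among them Csf1r, Adgre1, Cd68, Lyz2, Tyrobp, C1qa and Ptprc, had a mean of at least 1 CPM in each of the 4 groups. Levels are in CPM, the counts of a gene scaled to library size and TMM factor. Their summed level was 2579 to 22785 CPM in P plate, 4260.4 to 5253 CPM in M plate, 1989 to 4584 CPM in M scaffold and 202 to 271 CPM in strips. The highest sum was in P plate replicate 1, at 22785 CPM, against 4774 and 2579 CPM in P plate replicates 2 and 3. Smooth muscle markers summed to 32496 to 33849 CPM in strips and to 2535 to 9903 CPM in the cultures, so the strips carried the defining markers of muscle tissue. Neutrophil markers summed to 1.91 to 29.4 CPM in P plate and 2.80 to 4.53 CPM in M plate. Their sums were 1.02 to 1.69 CPM in M scaffold and 0.325 to 0.985 CPM in strips. Among them, Csf3r stood at 26.4, 8.94 and 1.72 CPM in P plate. S100a9 was at 0 counts in all 9 culture libraries and at up to 0.246 CPM in strips. The libraries held 21396485 to 116643512 gene counts. In such bulk RNA, fewer macrophages and less of a transcript per macrophage cannot be told apart.

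All 10 are protein-coding genes. GENCODE M21 on GRCm38 places Arg1 at chr10:24915221-24927484 (minus strand), Nos2 at chr11:78920787-78960254 (plus strand) and Mrc1 at chr2:14229392-14332057 (plus strand). It has Cd163 at chr6:124304656-124330527 (plus strand), Folr2 at chr7:101839988-101857194 (minus strand) and Trem2 at chr17:48346401-48354147 (plus strand), and Gpnmb at chr6:49036546-49070929 (plus strand), Spp1 at chr5:104435118-104441050 (plus strand) and Apoe at chr7:19696109-19699188 (minus strand). Promoter windows were available for 7 of the 10 genes, and those of Gpnmb, Spp1 and Trem2 are shown because the levels of Trem2 ran with those of Gpnmb and Spp1 over the libraries, as given further on. Each is the 250 bases before the RefSeq start on GRCm38.p6, 5′ to 3′ on the strand of the gene. Capitals mark matches to any of 4 short motifs searched on both strands. These were AGGAAG, the core bound by the ETS factor PU.1, ACCACA, bound by RUNX factors, TGANTCA, bound by AP-1, and CATGTG, bound by MITF and related factors.
Gpnmb, chr6:49036268-49036517, plus strand: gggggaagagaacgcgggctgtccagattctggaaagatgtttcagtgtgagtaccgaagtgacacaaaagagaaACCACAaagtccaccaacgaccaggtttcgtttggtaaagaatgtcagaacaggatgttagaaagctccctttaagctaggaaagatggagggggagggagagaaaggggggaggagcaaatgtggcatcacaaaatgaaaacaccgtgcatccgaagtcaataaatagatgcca
Spp1, chr5:104434861-104435110, plus strand: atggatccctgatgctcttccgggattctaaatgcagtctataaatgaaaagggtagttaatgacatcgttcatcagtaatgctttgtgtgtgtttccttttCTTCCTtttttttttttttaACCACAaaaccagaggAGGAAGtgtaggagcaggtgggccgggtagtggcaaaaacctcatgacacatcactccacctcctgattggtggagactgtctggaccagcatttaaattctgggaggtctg
Trem2, chr17:48346151-48346400, plus strand: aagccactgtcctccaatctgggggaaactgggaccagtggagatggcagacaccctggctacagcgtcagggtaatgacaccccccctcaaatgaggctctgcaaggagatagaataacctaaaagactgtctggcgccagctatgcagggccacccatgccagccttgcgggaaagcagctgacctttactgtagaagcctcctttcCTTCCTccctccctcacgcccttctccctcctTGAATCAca
The Spp1 window held AGGAAG 2 times, once on the opposite strand, and ACCACA once. In the Gpnmb window ACCACA was found once, and the Trem2 window held AGGAAG once, on the opposite strand, and TGANTCA once. No matches overlapped each other. AGGAAG was in 4 of the 7 windows, ACCACA in 3, TGANTCA in 1 and CATGTG in 1, that of Mrc1. Among 32851 promoter windows of the same length the shares were 29.5% for AGGAAG, 14% for ACCACA, 6.75% for TGANTCA and 12.3% for CATGTG. The motifs were chosen after the sequences had been seen, and a match describes letters, not binding.

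**Figure D1:**
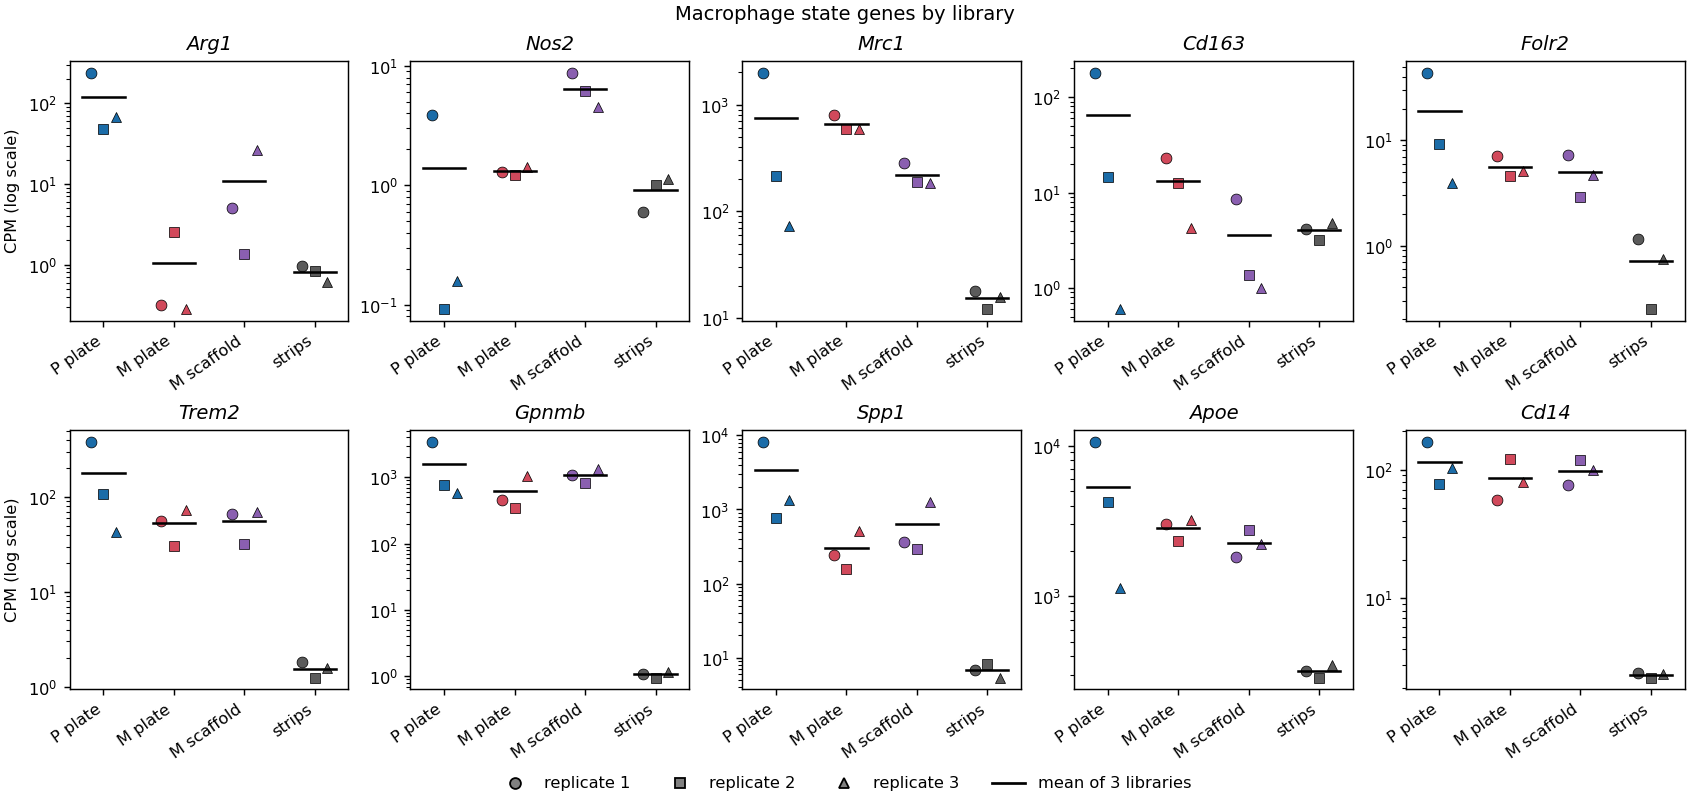
CPM (log scale) of each of the 10 genes in the 12 libraries, by group, with the replicate shown by the symbol and the mean of 3 libraries as a line. Strips lie far below the cultures for Gpnmb, Trem2, Spp1 and Cd14, P plate replicate 1 is the highest library of its group for all 10 genes, and Arg1 lies at 48.2 to 238 CPM in P plate against 0.283 to 2.54 CPM in M plate.

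The widest differences separated the native strips from the cultures. Gpnmb, a lysosomal membrane glycoprotein, was at 1.09, 0.959 and 1.17 CPM in strips replicates 1 to 3 and at 340.2 CPM or more in every culture library. The lowest culture library was 291 times the highest strips library for Gpnmb, 22.2 times for Cd14, 19.4 times for Spp1 and 16.8 times for Trem2. Libraries did not overlap with strips for 8 of the 10 genes in P plate, 8 in M plate and 9 in M scaffold, all higher than strips, beside 31.7%, 36.2% and 30.3% of all genes. Mrc1, Apoe and Folr2 were separated from strips in all 9 culture libraries as well, by 4.09, 3.26 and 2.54 times at the closest pair of libraries. Arg1, Nos2 and Cd163 were not, since at least 1 culture library was below the highest strips library.

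P plate was above strips for 9 of the 10 genes at an adjusted p under 0.05 in edgeR, beside 30.5% of all 17700 genes tested that were higher and 32.7% that were lower. M plate was above strips for 7 of the 10, beside 26.5% higher and 28.4% lower of all genes. For M scaffold the count was 9 of the 10, beside 24.5% higher and 27.6% lower. Nothing is read from these counts, because the genes were chosen with these contrasts known, and the 3 comparisons share the strips libraries. The median log2 fold change over the 10 genes was 5.56 in P plate, 4.12 in M plate and 3.82 in M scaffold, beside -0.028, -0.007 and -0.023 over all genes tested. Nos2 did not pass in P plate, Arg1, Nos2 and Cd163 did not in M plate, and Cd163 did not in M scaffold.

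Between the media on plates, 2 of the 10 genes passed, both lower in M plate: Arg1 and Spp1. Over all 17700 genes, 14.3% passed as higher and 10.6% as lower. The same 2 genes were those whose libraries did not overlap, beside 19.3% of all genes without overlap and with M plate lower and 22.6% with it higher. The median log2 fold change of the 10 was -1.56, against -0.004 for all genes. On the scaffold, 0 of 10 genes passed against M plate in edgeR, beside 1.53% of all genes that were higher and 1.64% that were lower. At an unadjusted p under 0.05 the count was 2, for which no share of all genes is given. DESeq2 called 1, beside 2019 of all 17700 genes, and limma-voom called 0, beside 1004. Replicate numbers were taken to pair the M plate and M scaffold libraries, from the correlations given with the methods. No source states such a pairing, so the blocked fits rest on an assumption. When these 6 libraries were fitted with a block for replicate number, 4 of 10 passed, Nos2 and Spp1 higher and Mrc1 and Cd163 lower, beside 4.81% of 16354 genes that were higher and 5.69% that were lower. The same 6 libraries without a block gave 2, Nos2 and Mrc1, beside 6.53% of all genes. The block over all 12 libraries gave 0, beside 2.21% of all genes. Nos2 lay above and Mrc1 below M plate in all scaffold libraries, where 15.9% of all genes did not overlap with the scaffold higher and 17.4% with it lower. The 10 genes had a median log2 fold change of 0.124 there, and all genes one of 0.01.

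**Figure D2:**
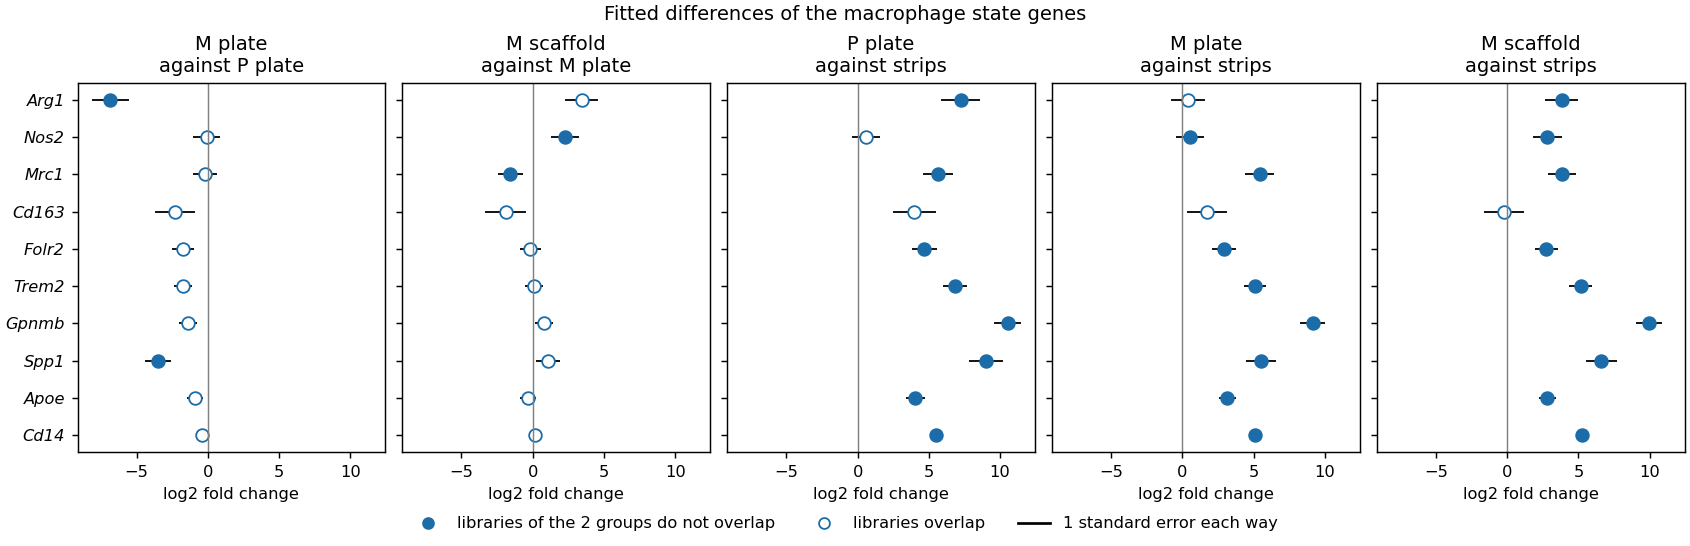
Fitted log2 fold changes of the 10 genes in the 5 comparisons, first group against second, with 1 standard error each way; filled points are genes whose libraries do not overlap between the groups. Gpnmb against strips lies farthest from 0, at 10.53 in P plate, and Arg1 and Spp1 are the filled points on the left in M plate against P plate.

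Of the arginine enzymes, Arg1 was high in P plate. It stood at 238, 48.2 and 68.0 CPM in P plate replicates 1 to 3, at 0.315, 2.54 and 0.283 CPM in M plate, at 5.07, 1.37 and 26.1 CPM in M scaffold and at 0.958, 0.834 and 0.614 CPM in strips. Every P plate library was above every other library, and the M plate libraries ran on both sides of the strips. M plate was below P plate by a log2 fold change of -6.85 ± 1.32 (SE), and P plate above strips by 7.23 ± 1.35. The scaffold mean of 10.8 ± 13.3 CPM (SD, n = 3) rested on replicate 3, also the most deeply sequenced library, with 116643512 gene counts. Without that library the log2 fold change from strips went from 3.81 ± 1.19 to 2.04 and no longer passed. The difference between M scaffold and M plate, 3.43 ± 1.15, went to 1.66 without it and to 5.22 without M plate replicate 2.

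Nos2 was low in all groups and highest on the scaffold. Its CPM were 8.75, 6.12 and 4.53 in M scaffold, 1.29, 1.22 and 1.43 in M plate, 0.602, 1.00 and 1.12 in strips, and 3.91, 0.0922 and 0.159 in P plate. The scaffold libraries were above all others, while the values of P plate replicates 2 and 3 rested on 3 and 5 counts and that of replicate 1 on 143. M scaffold was above M plate by 2.29 ± 0.98 on the log2 scale and above strips by 2.82 ± 1.01. With the replicate block in the 6 libraries the first value was 2.25 ± 0.274 and passed. The call against strips was kept in 4 of 12 fits that left out 1 library. P plate replicate 1 set the P plate value: without it, Nos2 in M plate against P plate moved from -0.09 to 3.37, and P plate against strips from 0.62 to -2.88, and both then passed. Per kilobase of exon, the Nos2 level in M scaffold was 1.47 ± 0.483 CPM (SD, n = 3) and that of Arg1 4.87 ± 5.99 CPM. In P plate the mean levels per kilobase were 53.1 CPM for Arg1 and 0.315 CPM for Nos2.

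Other genes of arginine, nitric oxide and polyamine metabolism changed in both directions between the media. Of 15 tested, 3 rose and 6 fell in M plate against P plate (edgeR). Nos3, the endothelial nitric oxide synthase, rose from 0.191, 0.707 and 0.605 CPM to 14.6, 26.7 and 18.7 CPM, a log2 fold change of 5.33 ± 0.81 with an adjusted p of 0.00106. Nos1, the neuronal enzyme, stood at 2.87, 1.32 and 3.82 CPM in P plate and at 90.6, 38.3 and 71.1 CPM in M plate, and rose by 4.64 ± 0.48 (adjusted p = 0.000114). Nos1 was at 166, 226 and 278 CPM in strips, above all P plate and M plate libraries. Ddah1, which breaks down an inhibitor of these synthases, fell by 1.90 on the log2 scale. Blood endothelial markers moved with Nos3: 4 of 4 had counts in each group, and they summed to 0.605 to 1.37 CPM in P plate, 1206 to 1481 CPM in M plate, 157 to 1129 CPM in M scaffold and 68.3 to 141 CPM in strips. Enteric glia markers, 4 of 4 with counts, summed to 13.7 to 27.6 CPM in P plate, 98.6 to 124 CPM in M plate, 192 to 462 CPM in M scaffold and 117 to 148 CPM in strips. M scaffold replicate 3 differed from the other scaffold libraries in both sets. It was the lowest of the 3 for the blood endothelial markers, with Pecam1 at 37.0 CPM against 235 and 175 CPM. For the glia markers it was the highest, with Sox10 at 166 CPM against 66.1 and 77.9 CPM. The part of these cell types in the results was not tested. Slc7a2, an arginine transporter, rose against strips by 2.55 ± 0.36 in P plate, by 1.66 ± 0.35 in M plate and by 3.01 ± 0.37 in M scaffold. In M scaffold against M plate 1 of the 15 passed in edgeR, the spermine synthase gene Sms, which rose by 0.72 ± 0.16, with 8 at an unadjusted p under 0.05 and 5 by DESeq2. The replicate block in those 6 libraries gave 3, Nos1, Sms and Slc7a2, all higher on the scaffold.

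The interleukin 4 response genes gave no common direction. Of 14, 9 could be tested. Retnla and Chil3, both classical markers of that response in mice, had 0 counts in all libraries of P plate and M plate. They were near 0 in the other groups too, at no more than 0.356 CPM for Retnla and 0.0621 CPM for Chil3. In M plate against P plate 2 rose, Clec10a and Mgl2, and 2 fell, Il4ra and Stat6. Il4ra, the receptor subunit for interleukin 4, fell from 688, 570.2 and 722 CPM to 181, 208 and 196 CPM, by 1.76 on the log2 scale (edgeR adjusted p = 7.18e-05). Arg1 and Il4ra were both highest in P plate. The part of interleukin 4 in the Arg1 level was not tested. On the scaffold 1 of the 9 rose against M plate, Ccl24, and 1 fell, Mgl2. With the replicate block in those 6 libraries 4 passed, 2 in each direction. Egr2, a transcription factor of alternative activation, rose against strips in the 3 cultures by 4.02, 4.19 and 5.82 on the log2 scale.

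Among the receptors, Mrc1 was spread over a wide range in P plate and even in M plate. It measured 1983, 215 and 73.7 CPM in P plate, 791, 591 and 597 CPM in M plate, 287, 189 and 186 CPM in M scaffold and 18.03, 12.2 and 15.9 CPM in strips. The M plate libraries lay within the range of P plate and above all M scaffold libraries. The log2 fold change of M plate against P plate was -0.20 ± 0.86, and 2.19 without P plate replicate 1, when it passed. Against M plate the scaffold was at -1.58 ± 0.88. That value was -1.56 without P plate replicate 1, and then passed, with a standard error of 0.351. This was the 1 of 12 fits leaving out 1 library in which it passed. With P plate replicate 1 and M scaffold replicate 3 left out together it was -1.44 ± 0.408 and did not pass. With the replicate block in the 6 libraries it was -1.59 ± 0.106 and passed. With the block over all 12 libraries it was -1.62 ± 0.762 and did not.

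Cd163 showed the widest spread of the 10 genes within a group. P plate replicates 1 to 3 had 179.6, 14.4 and 0.605 CPM, M plate 23.0, 12.7 and 4.21 CPM, M scaffold 8.47, 1.37 and 1.00 CPM and strips 4.13, 3.21 and 4.79 CPM. The highest P plate library was 297 times the lowest, and no pair of groups was without overlap. P plate against strips was at 4.0 ± 1.53 on the log2 scale and at 0.86 without P plate replicate 1, when it no longer passed. Its call held in 5 of the 12 fits that left out 1 library. Each M scaffold library was below the M plate library of the same number, and in the blocked fit of these 6 libraries Cd163 was at -2.175 ± 0.363 and passed.

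Folr2 was low, at 43.7, 9.16 and 3.95 CPM in P plate, 7.05, 4.59 and 5.16 CPM in M plate, 7.25, 2.92 and 4.72 CPM in M scaffold and 1.15, 0.250 and 0.742 CPM in strips. The cultures overlapped each other, and all were above strips. Its log2 fold changes from strips were 4.69 ± 0.88 in P plate, 2.93 ± 0.83 in M plate and 2.75 ± 0.83 in M scaffold. Folr2 shares 975 exon bases with the antisense gene Gm10602, whose counts came to 28.1% of those of Folr2. Whether counting used the strand is not stated in the sources used here, so the Folr2 values are uncertain.

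Of 14 genes of resident scavenger macrophages tested, 2 rose in M plate against P plate, Lyve1 and Cd209f, and 1 fell, Vsig4 (edgeR). At an unadjusted p under 0.05 the count was 8, and DESeq2 called 7. With P plate replicate 1 and M scaffold replicate 3 left out, 9 passed, 8 of them higher in M plate, beside 5969 of all 18028 genes in either direction. Lyve1, a hyaluronan receptor, stood at 16.8, 4.42 and 2.55 CPM in P plate and at 1709, 2174 and 1628 CPM in M plate, a log2 fold change of 7.85 ± 0.99 with an adjusted p of 0.000333. Lymphatic endothelium also carries Lyve1 and Mrc1. Its 4 of 4 markers, Prox1, Flt4, Pdpn and Reln, had counts in each group, but in P plate only 2 had a mean of at least 1 CPM. They summed to 63.6 to 90.8 CPM in P plate and 1427 to 1869.9 CPM in M plate. The sum was 188 to 1023 CPM in M scaffold and 30.4 to 40.5 CPM in strips. Pdpn made up most of the P plate sum, at 56.7, 59.2 and 85.1 CPM. It did not rise in M plate, at 61.3, 59.9 and 57.6 CPM. Prox1 went from 0.848, 0.707 and 0.892 CPM in P plate to 246, 225 and 205 CPM in M plate, and Flt4 and Reln rose as well. The part of lymphatic endothelium in the Mrc1 and Lyve1 levels was not tested. On the scaffold 0 of the 14 passed against M plate in edgeR, with 4 at an unadjusted p under 0.05, 2 by DESeq2 and 0 by limma-voom. The replicate block in those 6 libraries gave 4 of the 12 that this fit tested, all lower on the scaffold.

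Of the lipid and debris genes, Trem2, a lipid-sensing receptor, measured 384, 109 and 43.2 CPM in P plate, 56.1, 30.7 and 72.8 CPM in M plate, 66.4, 31.9 and 69.4 CPM in M scaffold and 1.83, 1.25 and 1.58 CPM in strips. The 3 cultures overlapped and strips lay below them. Its log2 fold change in M plate against P plate was -1.75 ± 0.66, which did not pass. It went to -0.51 ± 0.451 without P plate replicate 1. Of the 12 fits that left out 1 library it passed in 1, that without P plate replicate 3 (-2.20). On the scaffold against M plate it was 0.07 ± 0.64.

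Gpnmb measured 3459, 770.5 and 582 CPM in P plate, 456, 340.2 and 1051 CPM in M plate and 1066, 822 and 1332 CPM in M scaffold. M plate replicate 3 reached the scaffold range, and the other M plate libraries lay below it. M plate against P plate came to -1.38 ± 0.63 and the scaffold against M plate to 0.80 ± 0.62. Without P plate replicate 1 the value for M plate against P plate went to -0.13. From strips the log2 fold changes were 10.53 ± 0.94 in P plate, 9.14 ± 0.90 in M plate and 9.95 ± 0.92 in M scaffold.

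Spp1, which encodes the secreted protein osteopontin, measured 8256, 768 and 1329 CPM in P plate, 244, 159 and 516 CPM in M plate, 369, 294 and 1274 CPM in M scaffold and 6.73, 8.17 and 5.38 CPM in strips. All P plate libraries were above all M plate libraries, and M scaffold replicate 3 lay within the P plate range. M plate was below P plate by a log2 fold change of -3.49 ± 0.93. This went to -1.77 without P plate replicate 1 and did not pass then, nor did it without M plate replicate 1 or 2. With P plate replicate 1 and M scaffold replicate 3 left out it was -1.77 and passed. The scaffold against M plate, 1.08 ± 0.86, went to 0.11 without M scaffold replicate 3. Each scaffold library was above the M plate library of the same number, and the blocked fit of these 6 libraries gave 0.94 ± 0.166, which passed.

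Apoe, the lipid carrier apolipoprotein E, was the most abundant of the 10 genes per kilobase of exon in all 4 groups by mean level. It measured 10635, 4258 and 1144 CPM in P plate, 3039, 2315 and 3234 CPM in M plate, 1839, 2759.8 and 2213 CPM in M scaffold and 322, 289.7 and 351 CPM in strips. The M plate and M scaffold libraries fell inside the range of P plate. Mean levels per kilobase were 2500.2 CPM for Apoe and 2094 CPM for Spp1 in P plate, and 150.1 CPM for Apoe and 4.10 CPM for Spp1 in strips. By library, Spp1 was above Apoe per kilobase in P plate replicate 1 (5010 against 4974 CPM) and replicate 3 (806 against 535 CPM). The log2 fold changes of Apoe were -0.90 ± 0.58 in M plate against P plate and -0.33 ± 0.57 on the scaffold against M plate. The value for M plate against P plate went to 0.08 without P plate replicate 1. Without P plate replicate 3 it was -1.37 and passed. Fibroblasts and glia are also known to make Apoe: fibroblast markers, 6 of 6 with counts in each group, summed to 11816 to 16632 CPM in P plate, 19735 to 23044 CPM in M plate, 23808 to 33160.5 CPM in M scaffold and 5973 to 7249.9 CPM in strips. The glia markers were at 13.7 to 27.6 CPM in P plate and at 192 to 462 CPM in M scaffold, the group where they were highest. The part of these cells in the Apoe level was not tested.

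Of 21 other lipid handling and phagolysosome genes, 1 rose and 5 fell in M plate against P plate (edgeR). Abcg1, a cholesterol exporter, rose by 1.12 ± 0.24 on the log2 scale, and Cd63, Lgals3, Plin2, Mmp12 and Clec7a fell. Mmp12, a macrophage elastase, measured 276, 34.9 and 93.4 CPM in P plate and 19.2, 19.1 and 41.1 CPM in M plate. It fell by 2.35 on the log2 scale, and its value was -1.27 without P plate replicate 1, when it no longer passed. Clec7a, a receptor for fungal glucans, fell by 2.44 and was at -0.94, also not passing, without that library. With P plate replicate 1 and M scaffold replicate 3 left out, 9 passed and 6 of them were higher in M plate, beside 5969 of all 18028 genes in either direction. In M scaffold against M plate, Ctsk was the 1 of the 21 that passed in edgeR. The count was 9 at an unadjusted p under 0.05, 4 by DESeq2, 1 by limma-voom, 4 without those 2 libraries, and 5 with the replicate block, 3 higher and 2 lower. Ctsk, the collagen-degrading cathepsin K, stood at 85.7, 184 and 190.04 CPM against 28.6, 29.4 and 43.0 CPM, a rise of 2.19 ± 0.35 (adjusted p = 0.0171). Against strips 17 rose in P plate, 14 in M plate and 18 in M scaffold, beside 30.5%, 26.5% and 24.5% of all genes. The tetraspanin gene Cd9 fell in P plate and M plate. The lysosomal proton pump subunit Atp6v0d2 rose by 6.0 ± 0.73, 5.71 ± 0.72 and 6.95 ± 0.75 in the 3 cultures.

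Cd14 was the steadiest of the 10 genes across the cultures. It measured 165, 77.4 and 102 CPM in P plate, 57.8, 122 and 79.9 CPM in M plate, 76.5, 118 and 98.5 CPM in M scaffold and 2.6, 2.42 and 2.57 CPM in strips. The cultures overlapped throughout, and strips lay far below. Its log2 fold changes were -0.41 ± 0.31 in M plate against P plate and 0.18 ± 0.31 on the scaffold against M plate, and 5.50 ± 0.38, 5.09 ± 0.37 and 5.27 ± 0.37 in P plate, M plate and M scaffold against strips.

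The other lipopolysaccharide and classical activation genes also stood apart from strips. Of 20 tested, 19 rose in P plate, 18 in M plate and 15 in M scaffold against strips (edgeR). Of all genes, 30.5%, 26.5% and 24.5% were higher in these comparisons. Saa3, an acute-phase serum amyloid, stood at 6.38, 6.71 and 5.60 CPM in strips and at 1424 CPM or more in each culture library, and rose by 9.14 ± 0.70, 10.61 ± 0.74 and 10.59 ± 0.74. Tlr4, the receptor that Cd14 serves, rose by 3.48, 2.66 and 2.6, and its partner Ly96 by 1.83, 1.32 and 1.51. Between the media, 1 of the 20 rose in M plate, Lbp, and 3 fell, Tlr4, Il1a and Ptgs2. Ptgs2, the inducible cyclooxygenase, fell from 842, 222 and 461 CPM in P plate to 20.6, 28.2 and 26.5 CPM in M plate, by 4.34 on the log2 scale (adjusted p = 0.000129). Il1a fell by 4.25 and was at -1.18, not passing, without P plate replicate 1. Leaving out that library and M scaffold replicate 3 gave 6 genes, 5 of them higher in M plate, beside 5969 of all 18028 genes in either direction. On the scaffold 1 of the 20 passed against M plate, Il1b, which fell from 0.316 ± 0.129 to 0.0357 ± 0.0321 CPM (SD, n = 3). The blocked fit of those 6 libraries did not test Il1b and called 2 others, Il1a and Cd86, both lower on the scaffold.

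**Figure D3:**
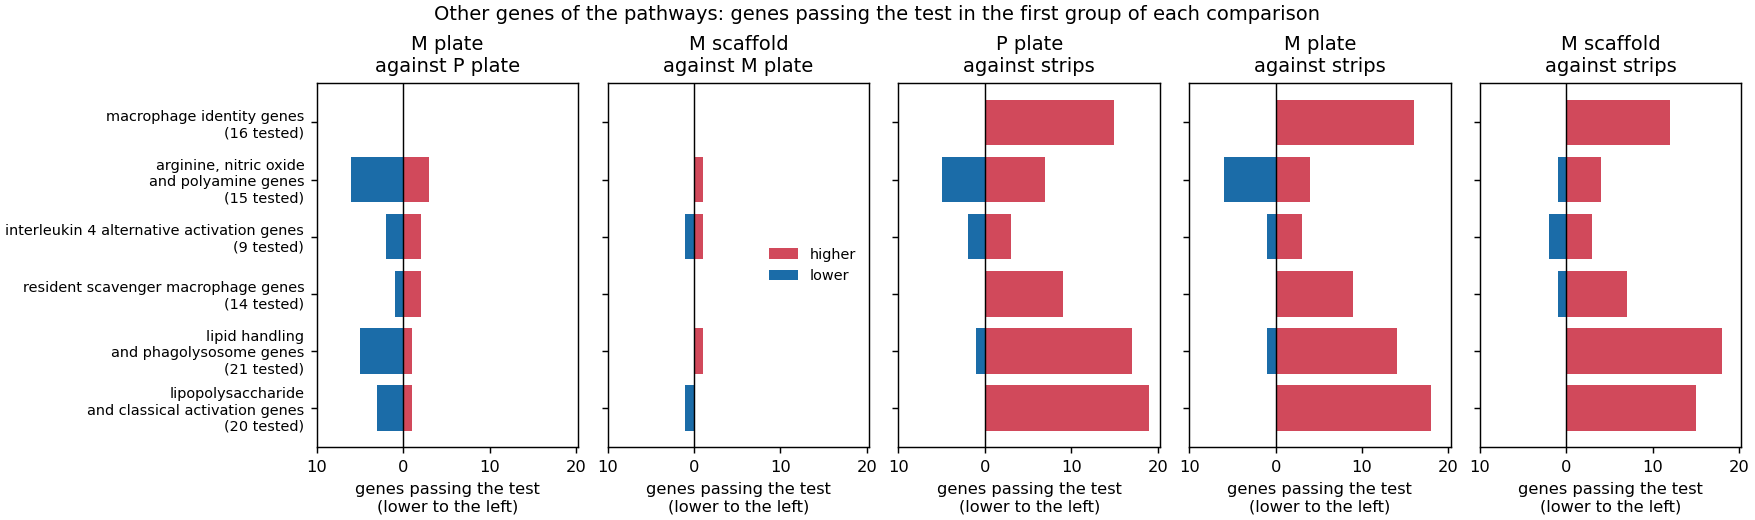
Numbers of genes in 6 lists of other pathway and identity genes that passed the edgeR test (adjusted p under 0.05) in each comparison, higher to the right and lower to the left. Most passing genes are higher in the cultures than in strips, with 15, 16 and 12 of the 16 identity genes, and few differ between M scaffold and M plate.

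The macrophage identity genes themselves set the scale on which the 10 genes can be read. Against strips, 15 of 16 rose in P plate, 16 in M plate and 12 in M scaffold (edgeR), beside 30.5%, 26.5% and 24.5% of all genes. Between the plates 0 of 16 passed, with 1 at an unadjusted p under 0.05, 0 by DESeq2 and 0 by limma-voom. Between M scaffold and M plate 0 of 16 passed as well, with 4 at an unadjusted p under 0.05, 3 by DESeq2 and 0 by limma-voom. The replicate block in those 6 libraries gave 6, all lower on the scaffold, among them Csf1r. The median log2 fold change of the 16 there was -0.976. Csf1r, the receptor that sustains macrophages, was at 98.7, 53.9 and 117 CPM in M scaffold and at 75.1, 74.4 and 67.2 CPM in strips, a difference of 0.31 ± 0.60 that did not pass, while Cd68, a lysosomal glycoprotein, rose by 5.07 ± 0.72 in the same comparison.

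Each of the 10 genes was then expressed as its log2 CPM minus the mean log2 CPM of the 16 identity genes in the same library. On that scale Gpnmb was at 3.19 ± 0.49 in P plate, 2.09 ± 0.89 in M plate, 4.23 ± 0.19 in M scaffold and -2.66 ± 0.25 in strips (mean ± SD, n = 3). Trem2 was at -0.06 ± 0.21, -1.36 ± 0.73, -0.09 ± 0.34 and -2.15 ± 0.06 in the same order. By mean, Gpnmb and Trem2 were lowest in strips relative to the identity genes, as were Spp1 and Cd14, at -0.05 ± 0.57 and -1.44 ± 0.28, though strips and M plate overlapped for Trem2 and Spp1. Apoe differed: it was 5.53 ± 0.27 above the identity genes in strips and 4.88 ± 0.29, 4.46 ± 0.36 and 5.31 ± 0.71 above them in P plate, M plate and M scaffold. Cd163 had its highest mean in strips on this scale, at -0.79 ± 0.24 against -3.43 ± 2.70, -3.58 ± 1.29 and -4.62 ± 1.84. The median of all genes tested was higher in strips than in P plate, M plate and M scaffold by 4.25, 4.22 and 3.06 on this scale. Folr2 overlapped between strips and each culture, and Mrc1 between strips and 2 of the 3 cultures.

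The mean log2 CPM of the identity genes was itself lower on the scaffold, at 5.76, 5.32 and 6.37 in M scaffold against 6.88 to 7.13 in M plate, with no overlap. On the relative scale 74% of all 17700 genes were higher in every scaffold library than in every M plate library, and 1.04% were lower. The count for the 10 genes was 7, near that share: Arg1, Nos2, Trem2, Gpnmb, Spp1, Apoe and Cd14. The median difference was 1.34 over the 10 genes and 1.19 over all genes. The mean differences were 4.34 for Arg1, 3.43 for Nos2, 2.14 for Gpnmb, 2.12 for Spp1, 1.41 for Cd14, 1.27 for Trem2 and 0.85 for Apoe on the log2 scale. On the CPM scale Nos2 alone of these 7 was without overlap, and the fitted log2 fold changes of Trem2, Cd14 and Apoe were 0.07, 0.18 and -0.33. Arg1 relative to the identity genes was at -0.46 ± 0.92 in P plate, -7.65 ± 1.63 in M plate, -3.31 ± 1.60 in M scaffold and -3.09 ± 0.42 in strips. M plate thus lay below the strips by 4.56, near the 4.22 by which the median of all genes tested did so. On the CPM scale M plate and strips overlapped for Arg1, with a log2 fold change of 0.38 ± 1.21. The relative values describe a ratio to a list, and other cells that carry a gene enter its numerator.

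**Figure D4:**
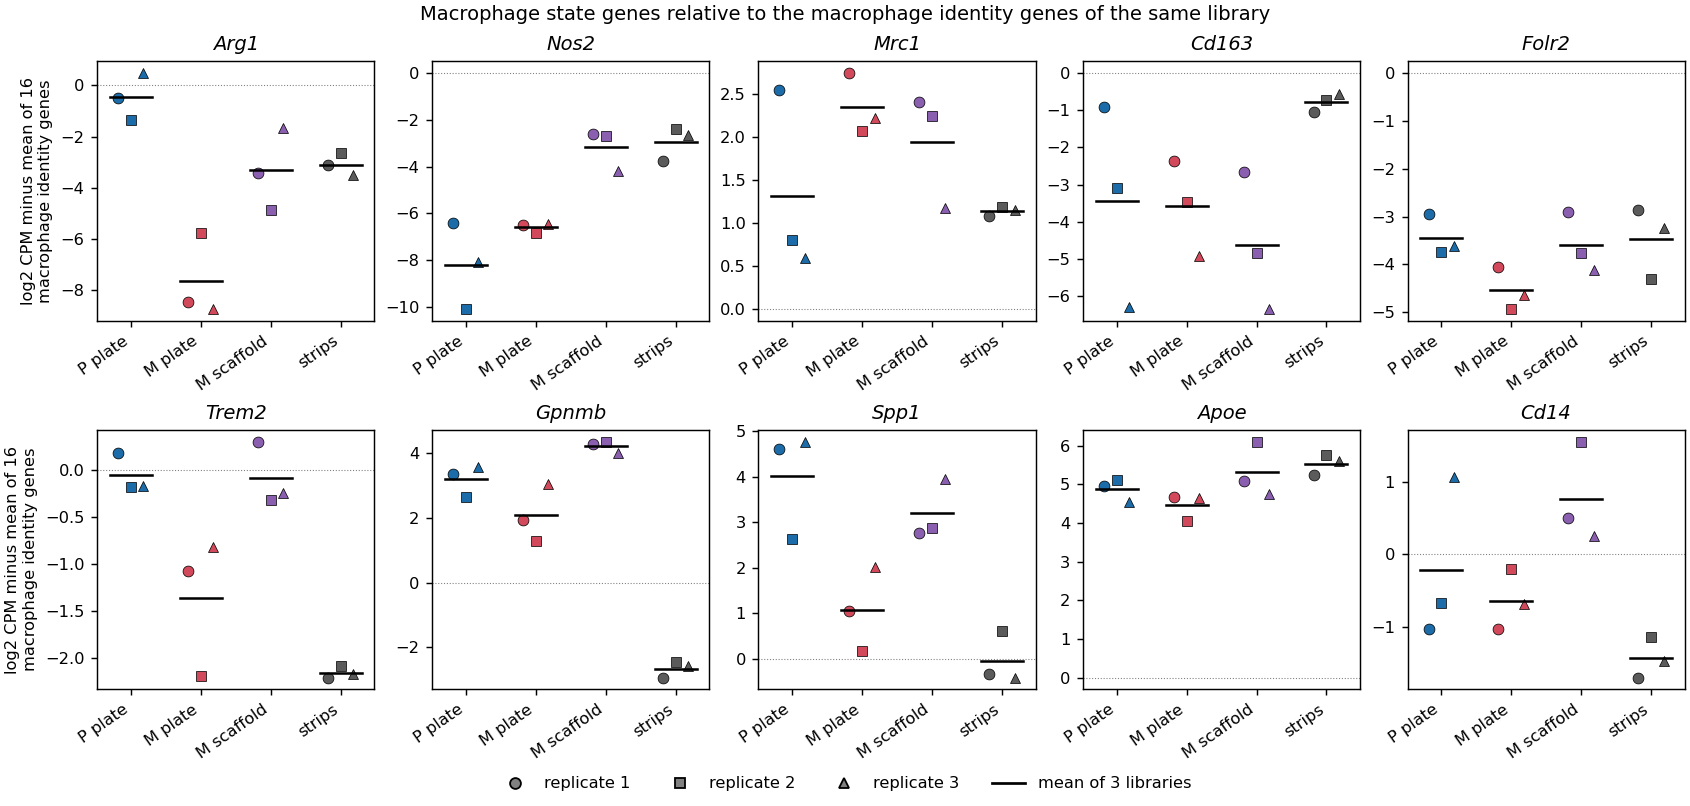
log2 CPM of each of the 10 genes minus the mean log2 CPM of 16 macrophage identity genes in the same library, by group; the line is the mean of 3 libraries and symbols are replicates. Gpnmb is highest in M scaffold, at 4.01 to 4.36, and lowest in strips, and Apoe and Cd163 have their highest means in strips.

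P plate replicate 1 stood apart from the other P plate libraries for all 10 genes. It was 24.6 times the higher of replicates 2 and 3 for Nos2, 12.4 times for Cd163, 9.22 times for Mrc1, 6.21 times for Spp1, 4.77 times for Folr2 and 4.49 times for Gpnmb. The ratio was 3.53 for Trem2, 3.50 for Arg1, 2.50 for Apoe and 1.61 for Cd14. For the 16 identity genes the median ratio was 3.71, from 0.0630 for Cx3cr1 to 6.14 for Lyz2, and 15 of 16 were above 1. Nos2, Cd163, Mrc1 and Spp1 thus exceeded every identity gene in this ratio. Mesothelial markers, 4 of 4 with counts, ranged from 282 to 2923 CPM within P plate, with the low end in replicate 1. All 4 were lowest in that library, among them Msln at 24.3 CPM against 524 and 551 CPM. Their part in the spread was not tested.

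Over the 12 libraries the log2 levels of most of the 10 genes ran with the mean of the identity genes. Pearson's r was 0.962 for Mrc1, 0.961 for Apoe, 0.956 for Trem2, 0.935 for Folr2, 0.918 for Gpnmb, 0.910 for Cd14 and 0.893 for Spp1. It was 0.487 for Cd163, 0.475 for Arg1 and 0.132 for Nos2. In the 9 culture libraries alone it was 0.845 for Mrc1, 0.834 for Cd163, 0.397 for Gpnmb, 0.280 for Cd14 and 0.227 for Arg1. These values are descriptions over libraries that fall into 4 groups and share depth and composition. Among pairs of the 10 genes, Gpnmb and Cd14 had the highest r, 0.983, followed by Trem2 with Gpnmb at 0.973 and Trem2 with Spp1 at 0.967, while Arg1 and Nos2 were at -0.14.

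The genes most like each of the 10 were sought among 12687 genes by Pearson's r of log2 CPM over the 12 libraries. For Trem2 they were Lpxn, Cd300c2 and Cd84, with r from 0.992, for Mrc1 Pik3cg, Rab3il1 and Stab1, and for Apoe Sirpa, Dusp7 and Cebpa. Spp1 was followed by Soat1 (0.991), which esterifies cholesterol, Ftl1, the ferritin light chain, and Vps35l. Cd14 had Apbb1ip (0.996), Rai14 and Runx1, Gpnmb had Tbc1d20, Bcl6 and Arpc1b, and Folr2 had Unc13d, Csf2rb and Plekhm2. Nos2 was nearest to Vstm2b (0.952), Galnt17 and Fabp4, a fatty acid binding protein that stood at 98.7, 84.6 and 77.6 CPM in M scaffold and at 34.6, 4.82 and 8.70 CPM in P plate. Cd163 had the weakest likeness, with Rnf180 at 0.933 and Engase at 0.885.

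Arg1 was nearest to Pgk1 (0.969), Fam162a (0.957) and Slc30a9. Pgk1, a glycolytic enzyme, has near-identical copies in the genome, so its counts are uncertain. Fam162a, known as a gene induced by low oxygen, measured 252, 205 and 254 CPM in P plate, 35.3, 50.2 and 33.4 CPM in M plate, 71.9, 40.9 and 256 CPM in M scaffold and 60.9, 47.3 and 44.8 CPM in strips. M scaffold replicate 3, the scaffold library with the highest Arg1, was also the one with the highest Fam162a. Slc2a1, the glucose transporter GLUT1, was chosen after its values were seen and stood at 84.7, 73.8 and 529 CPM in the 3 scaffold libraries. Their part in the Arg1 level was not tested.

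**Figure D5:**
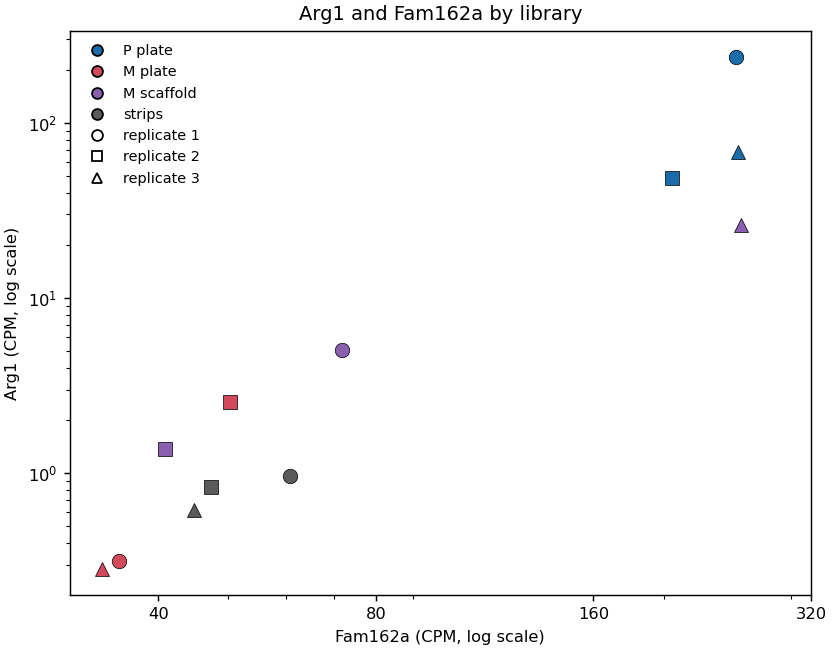
Arg1 against Fam162a in CPM (both axes log scale) for the 12 libraries, coloured by group, with the replicate shown by the symbol. The 3 P plate libraries and M scaffold replicate 3 lie to the right, at 205 to 256 CPM of Fam162a, and have the 4 highest Arg1 values.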

How the data were processed

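Counts were deposited by the authors as whole numbers per Ensembl gene, with 1 column per sample. STAR 2.6.0 and the builds GRCm38 and mm10 are named per the submitters' processing notes. The counting program, its strand setting and how technical replicates were joined are not stated in the sources used here. Symbols, coordinates and exon lengths came from GENCODE M21 (52403 of 52550 genes matched). The 5 summary entries were left out. Totals were 21396485 to 116643512 gene counts; a count of 0 allows up to 3 counts, and this floor covers counting error only. Chi-square per gene between replicates was 36.9 to 405, far above sampling noise.

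edgeR 4.0.16 (R 4.3.3) fitted 17700 genes passing filterByExpr over all 12 libraries with group as the only term (8 residual degrees of freedom). The quasi-likelihood F test was two-sided, and calls are at a Benjamini-Hochberg adjusted p under 0.05. Standard errors of log2 fold changes were derived from this test, as the absolute log2 fold change divided by the square root of F. CPM are TMM-scaled. Log2 CPM used a prior count of 1. The code was tested on simulated data. The 10 genes and 6 related lists were chosen with earlier results of these data known. From each list and comparison, up to 2 passing genes with the largest change in the more common direction and 1 in the opposite one, at 5 CPM or more, were named. Genes that spell out a count of 6 or fewer were named after their values were seen. Counts in the lists are to be read beside the shares of all genes given for the same comparison. Likeness used Pearson's r, without predicted or mitochondrial genes. Replicate numbers, as the labels give them, were checked by correlating deviations from the group means over all genes. Between M plate and M scaffold all 3 same-number correlations were over 0.1 (0.176 to 0.291, against -0.215 to -0.052 for other numbers). With deviations from the mean of 3 libraries, positive same-number correlations make the others negative in part by arithmetic. Different-number correlations reached 0.135 between P plate and M scaffold. The numbers were taken to pair M plate with M scaffold from the data and not from a stated shared source, so the pairing is not established. A block fit of the 6 leaves 2 residual degrees of freedom. Alternatives were RLE scaling, other filters, DESeq2 1.42.0, limma-voom 3.58.1, a replicate block and left-out libraries. The promoters of Arg1, Nos2 and Cd14 were not used here.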

Additional observations from a re-analysis of the deposited data

How the results depend on the processing

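No difference of a single gene of the 10 that passed changed its sign under any of 21 alternatives. Differences that had not passed are outside that count, and some did change sign. Without P plate replicate 1, M plate against P plate went from -0.09 to 3.37 for Nos2 and from -0.20 to 2.19 for Mrc1. Nos2 in P plate against strips went from 0.62 to -2.88. In M plate against P plate, 2 of the 10 genes passed, 1 when only the 6 libraries compared were fitted, and 4 with P plate replicate 1 and M scaffold replicate 3 left out together, an alternative chosen after seeing the data. Leaving out 1 library at a time gave 1 to 5, with 5 without P plate replicate 3. In M scaffold against M plate the count of 0 went to 1 with DESeq2, to 2 with only 6 libraries and to 1 without those 2 libraries, and leaving out 1 library gave 0 to 2, with 2 without P plate replicate 1. Of the related genes in M plate against P plate, 26 passed, 16 with only 6 libraries, and 10 to 35 when 1 library was left out, with 11 and 10 without M plate replicates 1 and 2. In M scaffold against M plate 5 related genes passed, 3 with a filter of 1 CPM in 3 libraries, 20 with DESeq2, 9 with limma-voom, 21 with only 6 libraries, 16 without the 2 libraries, and 1 to 22 when 1 library was left out, with 22 without P plate replicate 1. Calls over all genes tested also moved. For M plate against P plate they went from 4400 to 2846 with only 6 libraries and to 5969 without the 2 libraries. They were 3123 without P plate replicate 3, and 2630 and 2816 without M plate replicates 1 and 2. For M scaffold against M plate they went from 562 to 473 with that filter and to 2019 with DESeq2. They were 1004 with limma-voom, 1068 with only 6 libraries, 1355 without the 2 libraries and 1897 without P plate replicate 1. The cause of these moves was not tested.

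Replicate numbers were taken to pair M plate with M scaffold and no other pair of groups. In the other pairs of groups at most 1 of 3 same-number correlations was over 0.1 (-0.1 to 0.118). A replicate block over all 12 libraries gave 2 and 0 of the 10 genes and 24 and 4 related genes in M plate against P plate and M scaffold against M plate. Over all genes it gave 4088 and 391. A block within the 6 libraries compared, added after seeing the data, gave 0 and 4 of the 10 genes and 9 and 24 related genes, beside 1300 and 1718 of all genes. Among the 10, this block changed no call in M scaffold against M plate beyond the 4. Against strips, the counts of the 10 genes and of all related genes together stayed within 1.5 times under every alternative. Single lists did not all do so: resident scavenger genes in P plate against strips went from 9 to 5 with limma-voom and to 4 with the block within 6 libraries, and arginine genes in M scaffold against strips from 5 to 8 without the 2 libraries. Nos2 in P plate replicates 2 and 3 rested on 3 and 5 counts.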
